A study of Mus musculus with 6 samples.

Results

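Complement C3 and the genes of the early complement proteases and of complement regulators were examined in EO771 cells, a cultured mouse mammary tumour line. The set was defined by gene symbol as 9 genes: the central component C3, the components C4b and Cfb, the proteases C1ra and C1s1, and the inhibitors Serping1, Cd55, Cd59a and Cd46. They were picked from a table of 19832 genes with the LCN2-minus-control differences of these same libraries already known. The differences and p-values given for these genes are therefore descriptions and not independent evidence. Of the 9 genes, 7 had a row in the table, and Serping1 and Cd55 are not analysed here. Means over the 6 libraries were at least 1 FPKM (fragments per kilobase of transcript, scaled to sequencing depth) for C3, C1s1, C1ra and Cd59a, and below 1 FPKM for Cfb, C4b and Cd46.

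RNA was measured in 3 control libraries and in 3 libraries of cells given recombinant lipocalin-2 (LCN2), a small protein, released by cells, that captures bacterial iron carriers. All 6 came from the same cell line, and the labels state neither the dose of LCN2 nor how long it was given. The labels number the replicates from 1 to 3 in each group without saying that they were separate cultures, so p-values reflect sample-to-sample spread alone, possibly of technical origin. The comparison addresses how the tumour cells' transcripts differ when LCN2 is added, in a study of LCN2-positive mast cells and cancer stemness.

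Complement is a cascade of plasma and cell-surface proteins. In the classical pathway the proteases C1r and C1s cleave C4 and C2, in the alternative pathway factor B joins activated C3, and both routes end in cleavage of C3, whose thioester binds it to surfaces. Cells protect themselves with inhibitors such as CD55, CD46, CD59 and, on mouse cells, Crry (gene Cr1l). The liver makes most circulating C3, and epithelial cells, tumour cells and macrophages also make it.

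The 250 bases before the annotated start of C3 and of C1s1 are shown because these were the members with an adjusted p under 0.05, and those of C1s2 because it is the close copy of C1s1. They are from RefSeq, build GRCm38.p6, all on the minus strand, written 5′ to 3′ on the strand of the gene, and capitals mark matches to any of 6 motifs. The C3 window is chr17:57228137-57228386, the C1s1 window chr6:124542360-124542609 and the C1s2 window chr6:124636086-124636335.
C3: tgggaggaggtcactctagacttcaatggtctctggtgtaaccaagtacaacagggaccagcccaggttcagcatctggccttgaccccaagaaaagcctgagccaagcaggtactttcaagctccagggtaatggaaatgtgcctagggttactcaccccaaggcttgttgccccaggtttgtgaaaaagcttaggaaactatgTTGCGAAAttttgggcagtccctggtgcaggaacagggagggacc
C1s1: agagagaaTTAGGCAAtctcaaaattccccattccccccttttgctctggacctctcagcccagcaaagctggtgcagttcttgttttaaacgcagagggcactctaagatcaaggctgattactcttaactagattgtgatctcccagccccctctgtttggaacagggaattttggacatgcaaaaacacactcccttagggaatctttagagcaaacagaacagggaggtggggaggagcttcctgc
C1s2: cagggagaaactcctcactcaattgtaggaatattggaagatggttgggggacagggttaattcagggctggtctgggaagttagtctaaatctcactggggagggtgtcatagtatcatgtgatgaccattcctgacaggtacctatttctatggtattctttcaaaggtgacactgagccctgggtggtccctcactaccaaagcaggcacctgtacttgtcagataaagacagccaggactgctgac
The motifs searched on both strands were those of C/EBP (TTGCNNAA), AP-1 (TGANTCA), STAT (TTCNNNGAA), the C/EBP-ATF element (TGATGNAA) and NF-kB (its usual degenerate site), and TATAAA was searched on the strand of the gene. The C3 window held 1 match, TTGCGAAA to the C/EBP motif, from position -45 to -38, where -1 is the base before the start. The C1s1 window held 1 match, TTAGGCAA to the C/EBP motif on the opposite strand, from -242 to -235. The RefSeq table held 2 windows for C1s1. The one used starts nearest the GENCODE start, and matches in the other are not given. The C1s2 window held 0 of the 6 motifs. Of 32817 such windows in the RefSeq table, 9.6% held the C/EBP motif, 6.8% AP-1, 7.0% STAT, 3.5% C/EBP-ATF, 7.6% TATAAA and 7.2% NF-kB. Letters alone show neither binding nor a cause. The window of C1rb, a copy of C1ra that was not called, held 2 matches, to the C/EBP motif from -135 to -128 and to the STAT motif from -119 to -111, with a start 136 bases from that of the GENCODE gene. The windows of C1ra, Cd59a and Cd46 held 0 matches, the start used for C1ra lying 216 bases from that of the GENCODE gene, and the table held no window for Cfb or C4b.

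C3 (ENSMUSG00000024164, chromosome 17, 57203970 to 57228136, GRCm38, minus strand, 42 merged exons) encodes the protein on which the complement pathways meet. Its level was 5.97, 6.73 and 6.58 FPKM in control replicates 1 to 3 and 20.6, 20.1 and 22.95 FPKM in LCN2 replicates 1 to 3. The lowest LCN2 library was thus far above the highest control, and within each group the libraries lay close together. The means were 6.43 ± 0.404 FPKM (SD, n = 3) in control and 21.2 ± 1.51 FPKM (SD, n = 3) in LCN2 cells. The log2 fold change on the log2(FPKM + 1) scale was 1.64 (SE 0.07, 95% interval 1.48 to 1.80), a 3.12-fold rise on that scale, with an adjusted p of 0.00021 in limma. Among 10309 genes tested, C3 had the smallest p and the 7th largest rise. Its level stood at the 27.9th percentile of tested genes in control cells and at the 65.6th in LCN2 cells. No exon base of C3 overlaps another annotated gene, and 0% of the 50-base words of its longest transcript occur in transcripts of other genes. In bulk RNA, more cells with the transcript and more transcript per cell cannot be told apart.

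LCN2 replicate 2 stood apart from the other treated libraries across all genes, at 4.33 on the first principal component, with LCN2 replicates 1 and 3 at 15.7 and 16.5 and all controls from -17.3 to -8.09. C3 in that library, at 20.1 FPKM, was at its lowest among the LCN2 libraries but close to its level in LCN2 replicate 1. Without LCN2 replicate 2 the log2 fold change of C3 was 1.68, and over the 6 fits that left out 1 library it lay between 1.58 and 1.68.

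**Figure D1:**
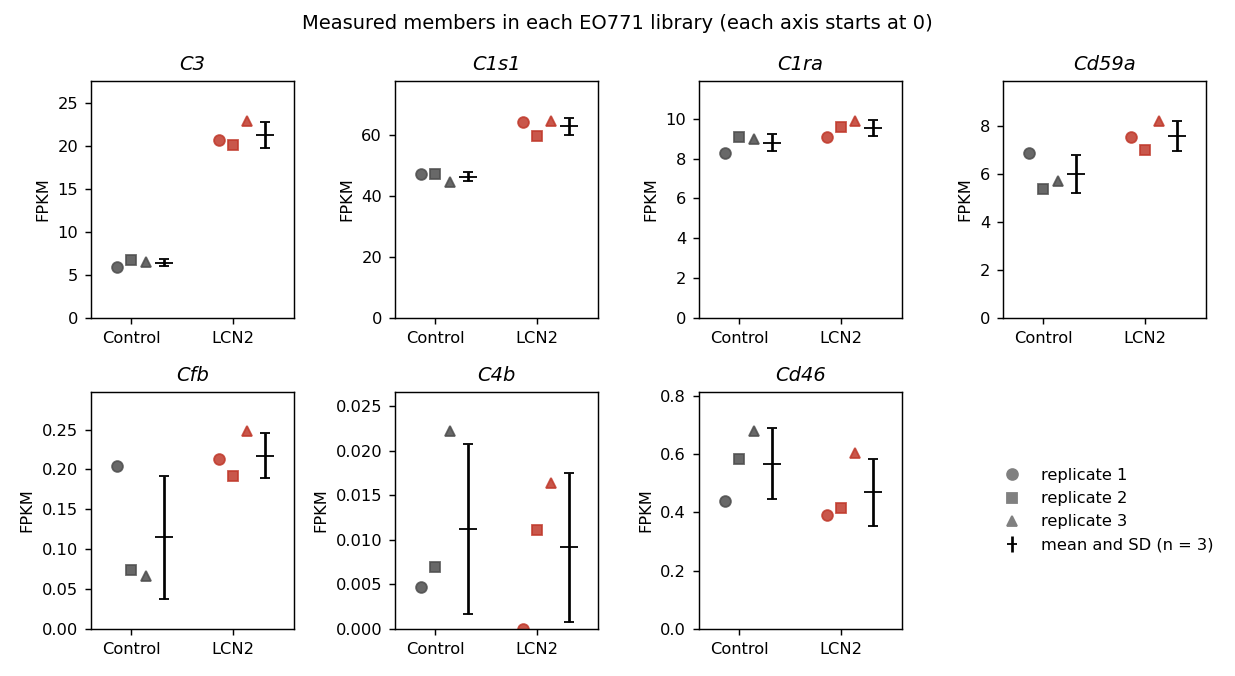
Level of each measured member in FPKM as deposited (vertical axis, from 0) in the control and LCN2 libraries, with symbols for replicate number and black bars for the mean and SD of 3 libraries. C3 is between 5.97 and 6.73 FPKM in control and between 20.1 and 22.95 FPKM in LCN2 libraries, while Cfb, C4b and Cd46 stay below 1 FPKM and overlap between groups.

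C1s1 (ENSMUSG00000038521, chromosome 6, 124530345 to 124542359, minus strand) encodes C1s, the protease that cleaves C4 and C2. It was at 47.1, 47.2 and 44.6 FPKM in control replicates 1 to 3 and at 64.1, 59.5 and 64.7 FPKM in LCN2 replicates 1 to 3. All LCN2 libraries were above all controls, the lowest being replicate 2. The means were 46.3 ± 1.45 and 62.7 ± 2.82 FPKM (SD, n = 3 each), with a log2 fold change of 0.49 (SE 0.05, 95% interval 0.37 to 0.61, adjusted p = 0.0041 in limma). C1s1 therefore had the highest level of the members in both groups but a smaller log2 fold change than C3. Of the 50-base words of its longest transcript, 39.0% also occur in other genes' transcripts, mainly in C1s2, and 18.4% of its exon bases overlap an antisense gene, so part of its value depends on how reads were assigned.

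C1ra (chromosome 6, 124512405 to 124523443, plus strand) encodes C1r, the protease that activates C1s. Its level was 8.29, 9.08 and 8.99 FPKM in control and 9.08, 9.58 and 9.90 FPKM in LCN2 replicates 1 to 3. As deposited, the groups met at 9.08 FPKM, the value of control replicate 2 and LCN2 replicate 1. After the libraries were scaled for the fit, the groups no longer overlapped. The log2 fold change was 0.16 (SE 0.06, 95% interval 0.03 to 0.30, adjusted p = 0.079 in limma), which missed the threshold. Its copy C1rb shares sequence with it, and 50.8% of the 50-base words of C1ra occur in other transcripts.

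Cd59a (chromosome 2, 104095801 to 104115354, plus strand) encodes CD59, a membrane-anchored protein that blocks assembly of the membrane attack complex. It was at 6.90, 5.39 and 5.72 FPKM in control replicates 1 to 3 and at 7.54, 7.01 and 8.24 FPKM in LCN2 replicates 1 to 3. The groups did not overlap, but control replicate 1 lay just under LCN2 replicate 2. The log2 fold change was 0.35 (SE 0.11, 95% interval 0.11 to 0.60, adjusted p = 0.051 in limma), on the far side of the threshold by little. It passed without control replicate 1 (0.45, adjusted p = 0.0405), without LCN2 replicate 2 (0.41, adjusted p = 0.0397) and with libraries scaled to column sums (0.33, adjusted p = 0.04996). Under the other 12 of 15 alternative fits it missed, with adjusted p in limma reaching 0.16 without LCN2 replicate 3 (0.30).

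Of the 4 members tested, 2 were called higher and 0 lower, where 21.5% of the 10309 tested genes were called in either direction, 11.8% higher and 9.73% lower. At an unadjusted p under 0.05 in limma, 4 were higher and 0 lower. C1ra, the last of them, ranked 3075th by p among the 10309 tested genes. At least 3075 tested genes thus passed that threshold, in either direction. With values as deposited, all LCN2 libraries were above all controls in C3, C1s1 and Cd59a, as in 11.9% of tested genes. After scaling this held for C1ra too, and the share of tested genes after scaling was not computed. Since the members were chosen with this comparison known, these shares are given as background only. The split of calls over all genes depended on scaling: 1213 higher and 1003 lower after the scaling used here, and 693 higher and 1680 lower with values as deposited, under which C3 (1.58) and C1s1 (0.43) were still called higher.

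The members below 1 FPKM lay outside the test. Cfb, which encodes factor B of the alternative pathway (chromosome 17, 34856374 to 34862518), measured 0.204, 0.0744 and 0.0667 FPKM in control and 0.213, 0.191 and 0.248 FPKM in LCN2 replicates 1 to 3. Control replicate 1 lay within the range of the LCN2 libraries, and the other controls lay below it. Of the exon bases of Cfb, 79.5% overlap the gene model Gm20547, so its reads cannot be separated from those of that model. Cd46, an inhibitor that helps inactivate C3b (chromosome 1, 195036826 to 195092249), measured 0.437, 0.583 and 0.678 FPKM in control and 0.390, 0.413 and 0.601 FPKM in LCN2 replicates 1 to 3, with overlapping groups, and 14.2% of its exon bases overlap antisense genes. C4b, a component of the classical pathway (chromosome 17, 34728380 to 34743882), did not exceed 0.0222 FPKM in any library and was listed at 0 in LCN2 replicate 1. Of its 50-base words 35.2% occur in other transcripts, mainly C4a, which is not analysed here. In a two-sided exact permutation test over the samples p was 0.2 for Cfb, 0.5 for Cd46 and 0.8 for C4b, where 0.1 is the smallest value that 3 against 3 allows.

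In control cells the order of levels per transcript length was C1s1 (46.3 FPKM), C1ra (8.79), C3 (6.43), Cd59a (6.002), Cd46 (0.566), Cfb (0.115) and C4b (0.0113). Only C3 and Cd59a, next to each other in that order, had overlapping ranges over the 3 control libraries. In LCN2 cells C3 stood above C1ra, and the order was otherwise the same. C3 made up between 8.66% and 9.87% of the summed FPKM of the 7 measured members in control libraries and between 20.25% and 21.5% in LCN2 libraries. The level of C3 was between 0.127 and 0.1475 of that of C1s1 in control and between 0.322 and 0.355 of it in LCN2 libraries.

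**Figure D2:**
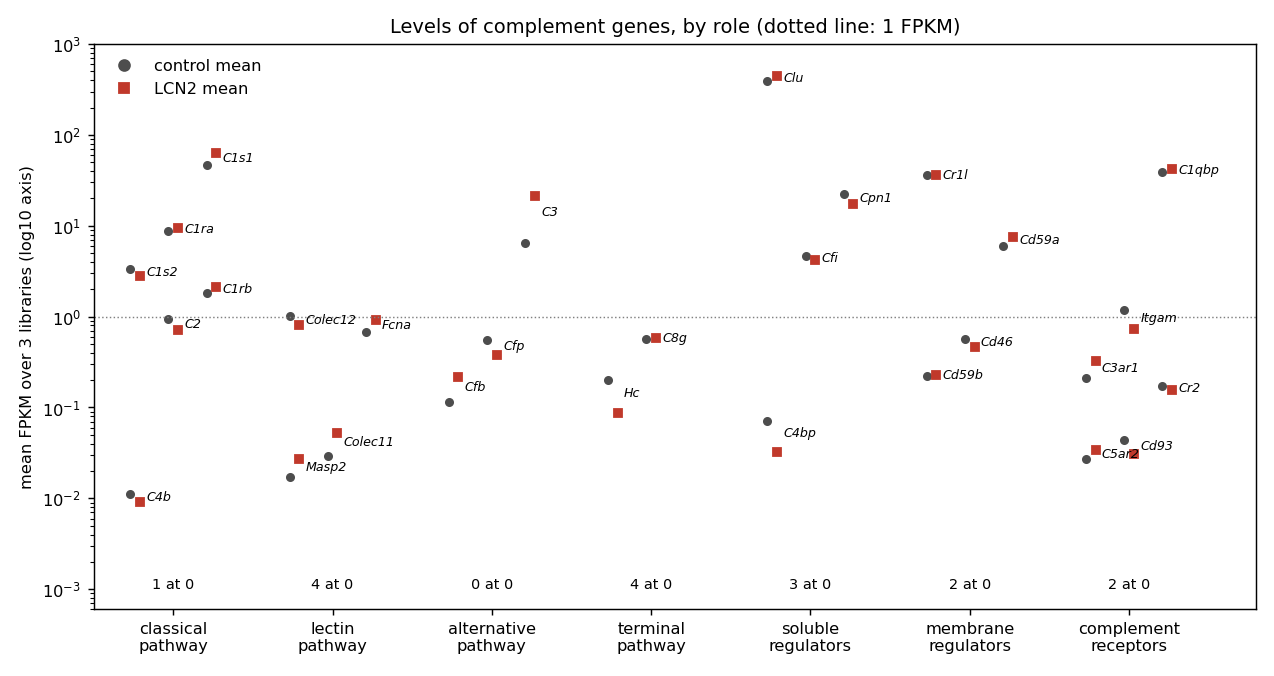
Mean FPKM over 3 control (circles) and 3 LCN2 (squares) libraries, on a log10 axis, for most complement genes above 0, grouped by role, with the number of genes listed at 0 in every library at the foot. The proteases C1s1 and C1ra, C3 and several regulators lie above the dotted line at 1 FPKM, and the lectin and terminal pathway genes lie near or below it.

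The wider pathway was described with a list of 60 complement genes, of which 46 had a row and 11 were tested. In all 3 were called higher (C3, C1s1 and Clu) and 1 lower (Cpn1), where 11.8% of all tested genes were called higher and 9.73% lower. The median log2 fold change of the 11 was 0.17, against 0.00078 over all tested genes. Both the count and the median include the members, which were chosen with this comparison known. Without the members, 7 were tested, 1 higher and 1 lower, with a median of 0.05. Among the 46 genes with a row, those at or above 1 FPKM were thus mainly early classical proteases, C3 and regulators, and the 14 genes without a row are not analysed here. No lectin pathway gene (8 with a row, 4 of them at 0 in every library) and no terminal pathway gene (6 with a row, 4 at 0) reached the level for testing, C5 (gene Hc, at most 0.350 FPKM) included. C1qb, a chain of the recognition protein C1q, was listed at 0 in every library.

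Among soluble regulators 3 of 8 genes with a row were tested. Clu, which encodes clusterin, an inhibitor of the terminal complex, measured 375, 416 and 382 FPKM in control and 447, 418 and 461 FPKM in LCN2 replicates 1 to 3. It was the most abundant gene of the pathway list and rose by 0.24 on the log2 scale (SE 0.05, adjusted p = 0.018 in limma). The groups did not overlap, although control replicate 2 was close to LCN2 replicate 2. Leaving out either control replicate 1 or 3, or either LCN2 replicate 1 or 3, ended the call of Clu, with adjusted p reaching 0.077. Cpn1, which encodes the catalytic chain of carboxypeptidase N that trims the anaphylatoxins C3a and C5a, measured 21.3, 23.1 and 23.0 FPKM in control and 17.5, 17.4 and 17.6 FPKM in LCN2 replicates 1 to 3. It fell by 0.28 on the log2 scale (SE 0.05, adjusted p = 0.011), and leaving out control replicate 3 or LCN2 replicate 1 ended its call, with adjusted p reaching 0.055. Cfi, the protease that inactivates C3b, measured 4.61 ± 0.340 FPKM in control and 4.15 ± 0.441 FPKM in LCN2 cells (SD, n = 3 each, log2 fold change -0.07, adjusted p = 0.54).

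The membrane regulator with the highest level was Cr1l, at 35.3, 37.4 and 35.7 FPKM in control and 33.8, 38.2 and 35.4 FPKM in LCN2 replicates 1 to 3. The log2 fold change was 0.05 (SE 0.05, adjusted p = 0.49), with a 95% interval from -0.07 to 0.16, and it was -0.01 with values as deposited. Cd59b was below 1 FPKM in every library and Cd55b was listed at 0 in all of them. Of the membrane regulators 2 were tested, Cd59a and Cr1l, and 0 were called. Of 8 complement receptor genes with a row, only C1qbp was tested (38.7 ± 1.62 FPKM in control and 42.5 ± 5.57 FPKM in LCN2 cells, log2 fold change 0.19, adjusted p = 0.18), and its protein, which binds C1q, is mostly mitochondrial. The receptor of the C3 fragment C3a, C3ar1, measured 0.211 ± 0.0904 FPKM in control and 0.326 ± 0.114 FPKM in LCN2 cells.

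**Figure D3:**
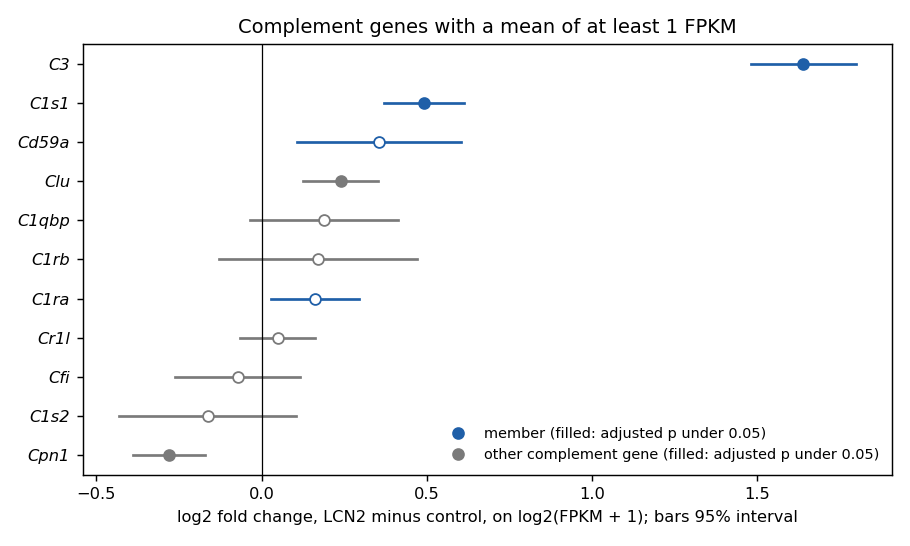
Log2 fold change, the LCN2 value less the control value of log2(FPKM + 1) (horizontal axis), with 95% intervals from limma, for the 11 tested complement genes, members in blue and other genes in grey, filled where the adjusted p was under 0.05. C3 lies at 1.64, apart from the others, which lie between -0.28 and 0.49.

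The copies of C1s1 and C1ra lie in the same stretch of chromosome 6. C1s2 lies 82266 bases beyond C1s1 and measured 3.23, 3.11 and 3.75 FPKM in control and 3.04, 3.09 and 2.22 FPKM in LCN2 replicates 1 to 3. With values as deposited, all LCN2 libraries of C1s2 were below all controls, by little (3.09 against 3.11 FPKM). After the libraries were scaled for the fit the groups overlapped, and C1s2 was not called (log2 fold change -0.16, SE 0.11, adjusted p = 0.33 in limma). The share of all genes with every LCN2 library below every control was not computed. The ratio of C1s1 to C1s2 was 14.6, 15.2 and 11.9 in control and 21.1, 19.2 and 29.1 in LCN2 replicates 1 to 3. C1rb, 27935 bases beyond C1s1, measured 1.83 ± 0.0427 FPKM in control and 2.12 ± 0.531 FPKM in LCN2 cells (log2 fold change 0.17, adjusted p = 0.36). Among the 4 tested genes of the classical pathway (C1ra, C1rb, C1s1 and C1s2) only C1s1 was called, and differences between these genes' changes were not tested.

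C3 belongs to the thioester proteins, the family of C4, C5 and alpha-2-macroglobulin. Of 7 family genes with a row 2 were tested, and besides C3 the other was Cd109, a membrane-anchored member, which fell from 5.04 ± 0.215 to 4.02 ± 0.0829 FPKM (SD, n = 3 each, log2 fold change -0.21, adjusted p = 0.035). Leaving out any library other than LCN2 replicate 2 ended the call of Cd109 (adjusted p reaching 0.11). C3 is also an acute phase protein, and of 11 such genes with a row 3 were tested. Of these, 2 were called higher and 0 lower, C3 itself being the first, where 11.8% of all tested genes were called higher. The second was Cp (ceruloplasmin, a copper-carrying ferroxidase), with means of 2.28 ± 0.0586 FPKM in control and 3.18 ± 0.400 FPKM in LCN2 cells (log2 fold change 0.39, adjusted p = 0.022). Leaving out any of the controls, or LCN2 replicate 3, ended the call of Cp (adjusted p reaching 0.0833). Lbp, which encodes the lipopolysaccharide-binding protein, measured 46.5 ± 3.20 FPKM in control and 41.4 ± 0.0779 FPKM in LCN2 cells (log2 fold change -0.10, adjusted p = 0.13), and 6 acute phase genes were listed at 0 in every library. The 2 others, Lcn2 and Hpx, were below the filter. Lcn2 measured 0.0891 ± 0.0328 FPKM in control and 0.276 ± 0.0348 FPKM in LCN2 cells. With the filter lowered to 0.1 FPKM, Lcn2 was called higher (log2 fold change 0.24, adjusted p = 0.038 in limma) and Hpx was not called (-0.18, adjusted p = 0.20).

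The 5 genes whose profile over the 6 libraries was most like that of C3 were Arhgef2, Ankrd1, Adamts1, Ciart and Mmp13. Likeness was the root mean square difference of log2(FPKM + 1) after each gene was centred on its own control mean, and it was 0.158, 0.218, 0.232, 0.251 and 0.266 in that order, where 0 is identity. Their log2 fold changes lay between 1.31 (Mmp13, a collagenase) and 1.67 (Ankrd1), and, since the measure selects for such profiles, they are given as descriptions. Arhgef2 (0.746 ± 0.0572 FPKM in control and 4.25 ± 1.29 FPKM in LCN2 cells) and Ciart (0.681 ± 0.226 and 3.36 ± 0.667 FPKM, SD, n = 3 each) were below 1 FPKM in control and passed the filter only through the LCN2 libraries. All 5 were higher in every LCN2 library than in any control, as the measure selects for. In LCN2 replicate 2 C3 and each of the 5 stood lower than in the other LCN2 libraries. There the 5 were between 0.98 and 1.28 above their control means. C3 stood at 1.55 there, against 1.61 and 1.76 in LCN2 replicates 1 and 3.

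**Figure D4:**
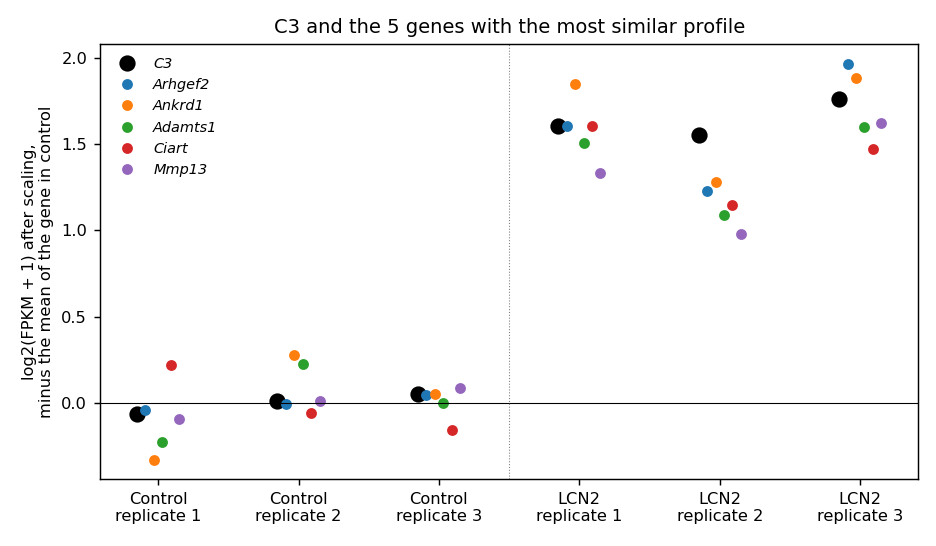
Level of C3 (large black points) and of the 5 genes with the smallest root mean square difference from it, as log2(FPKM + 1) after scaling minus each gene's control mean (vertical axis), in each of the 6 libraries. In LCN2 replicate 2, the lowest LCN2 library for C3 and for each of the other 5 genes, C3 is at 1.55 and the others are between 0.98 and 1.28.

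Markers of other cell types were checked in the same libraries, since macrophages and liver cells make C3. Of 9 macrophage markers 8 had a row, Tyrobp was listed at 0 in every library, Ptprc did not exceed 0.0868 FPKM, and only Cd68 and Cd14 reached a mean of 1 FPKM. The summed level of the list was between 15.3 and 19.2 FPKM in control and between 18.4 and 19.9 FPKM in LCN2 libraries, and Cd14 was called higher (log2 fold change 0.32, adjusted p = 0.033). Of 7 hepatocyte markers 4 were at 0 in every library (Ttr, Serpina1a, Cps1 and Cyp3a11), and the summed level, nearly all of it Alb, went from between 322 and 358 FPKM in control to between 179 and 194 FPKM in LCN2 libraries (Alb log2 fold change -0.78, adjusted p = 0.00039). Of 8 mast cell markers 5 had a row and 4 of them were at 0 in every library, with summed levels of at most 0.111 FPKM in control and 0.153 FPKM in LCN2 libraries. Fibroblast markers (4 of 7 with a row, Pdgfrb and Thy1 at 0) summed to between 3.70 and 4.71 FPKM in control and between 3.57 and 3.92 FPKM in LCN2 libraries, nearly all Pdgfra, and endothelial markers (4 of 5 with a row, Tek at 0) to at most 0.472 and 0.660 FPKM.

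Mammary epithelial markers were partly present. Krt8, Krt18, Krt19, Epcam, Esr1 and Erbb2 reached a mean of 1 FPKM, while Pgr, Elf5 and Gata3 were at 0 in every library and Cdh1 did not exceed 0.209 FPKM. The 10 markers summed to between 1233 and 1296 FPKM in control and between 1191 and 1207 FPKM in LCN2 libraries, with 1 called higher (Krt18) and 3 lower (Krt8, Krt19 and Erbb2). What part these changes have in the level of C3 was not tested.

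**Figure D5:**
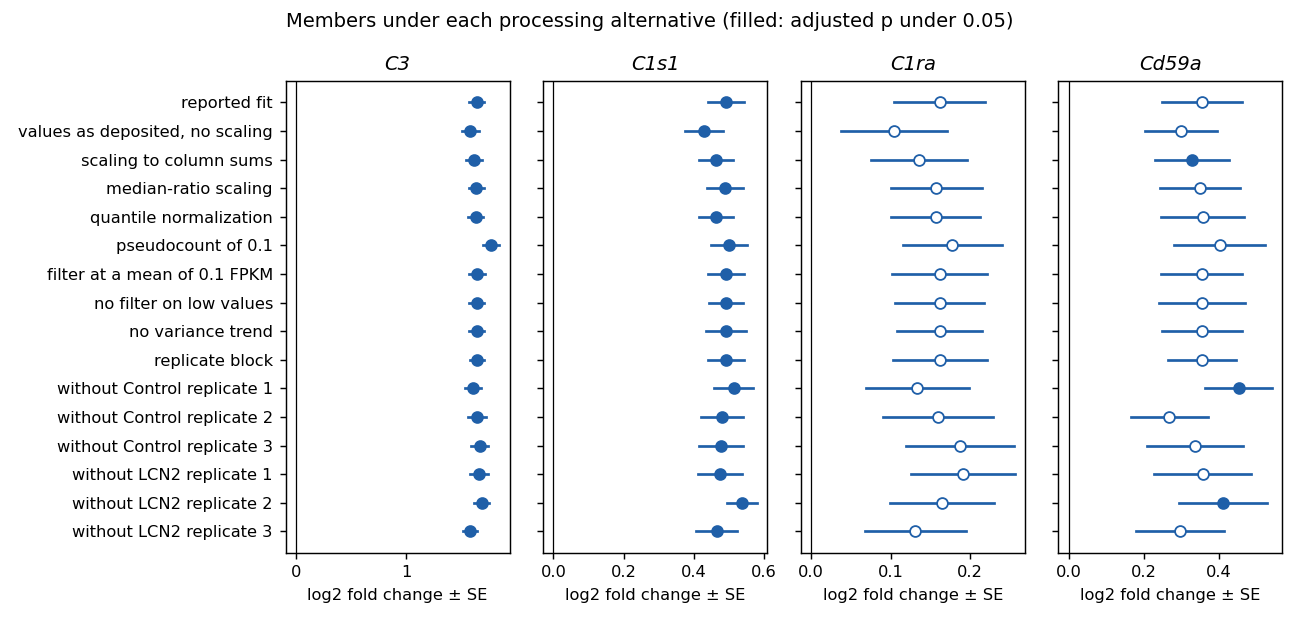
Log2 fold change of the 4 tested members (horizontal axes, with SE) in the reported fit and under each of the 15 alternatives, filled where the adjusted p was under 0.05. C3 stays between 1.58 and 1.77 and C1s1 between 0.43 and 0.54, all filled, whereas C1ra is never filled and Cd59a is filled in 3 of the alternatives.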

How the data were processed

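The authors deposited 1 table of values for 19832 genes in 6 libraries. Although its name speaks of raw counts, whole numbers (within 1e-9) made up 0% of the nonzero values. These, multiplied by transcript length, summed to between 1032628 and 1095179 per library, so the deposited values were treated as FPKM, a unit inferred here. The build is GRCm38 per the submitters' processing notes; the aligner, quantifier and strand handling were not given in the sources used here. Per the labels' protocols, libraries were made from total RNA with a SMARTER mRNA-Seq kit. Read depth is unknown: the commonest ratio among low genes held 3 to 5 of 396 to 428 genes, so whole reads were not recovered, and no intervals or floors that need counts are given.

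Values were scaled by unweighted TMM factors (0.970 to 1.06; trimming 0.3 of ratios and 0.05 of levels) and fitted as log2(FPKM + 1) with limma 3.58.1 in R 4.3.3, with a variance trend, on the 10309 genes whose mean reached 1 FPKM. Adjusted p is Benjamini-Hochberg over all of them, two-sided, with a threshold of 0.05. The fold change on this scale understates that of low genes. The fit was also run on simulated data with independent noise for each gene and no outlying library, which does not measure how reliable the calls here are. Members, gene lists, markers and settings were chosen with earlier results of these data known. Genes were named by rule: all members, called genes of the complement list and up to 3 others of each role at or above 1 FPKM, paralogues of members, and the 5 profiles nearest C3. Cd109, Cp, Lbp, low genes and single markers were named after their values were seen, and 1 complement gene is not reported here. Positions and overlaps are from GENCODE M21 on GRCm38. Alternatives changed the scaling, pseudocount, filter, trend, replicate term and libraries.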

Additional observations from a re-analysis of the deposited data

How the results depend on the processing

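C3 and C1s1 were called higher under all 15 alternatives, with adjusted p of up to 0.0072 for C3 and up to 0.033 for C1s1, and C1ra was called under none of them. The member count was 2 or 3 higher and 0 lower in each. Over all genes the calls moved from 1213 higher and 1003 lower to 693 and 1680 with values as deposited, to 181 and 81 with a replicate block, and to 884 and 601 with no filter on low values, and leaving out 1 library gave between 179 and 1659 higher and between 89 and 1501 lower, the fewest without LCN2 replicate 1. In the complement list the 1 fall became 2 when the minimum mean was lowered to 0.1 FPKM and 2 with no filter, when Itgam was tested too, 0 with the replicate block, and between 0 and 1 without single libraries (0 without control replicate 3 or LCN2 replicate 1). Cr1l turned from 0.05 to -0.0135 with values as deposited. Same-numbered deviations from the group means correlated at -0.224, -0.261 and 0.009 across genes, and no library correlated best with its own number. With 3 libraries per group these deviations constrain each other, so whether same-numbered libraries were handled together remains unknown. Clu, Cpn1, Cp and Cd109 lost their calls under the block (adjusted p of 0.0533 to 0.107 in limma). The called cell type markers were not followed through the alternatives. Without counts, the precision of the values below 1 FPKM is unknown.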

Other observations

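Cfp and Itgam, complement genes with a mean below 1 FPKM, had all LCN2 libraries below all controls with values as deposited. So did C4bp, at 0.0715 ± 0.0232 FPKM in control and 0.0322 ± 0.0170 FPKM in LCN2 cells. The share of all genes with this pattern was not computed. With values as deposited the median log2 fold change of all tested genes was -0.0562. They were chosen after their values were seen. Cfp, which encodes properdin, a stabiliser of the alternative pathway convertase, measured 0.556 ± 0.0148 FPKM in control and 0.373 ± 0.0530 FPKM in LCN2 cells (SD, n = 3 each; adjusted p = 0.12 in limma with the filter lowered to 0.1 FPKM). Itgam, a chain of the receptor for the C3 fragment iC3b, was at 1.18 ± 0.137 and 0.725 ± 0.105 FPKM, just under the filter over all 6 libraries, and passed with the lower filter (log2 fold change -0.31, adjusted p = 0.042), but 68.7% of its exon bases overlap the gene model Gm49368.

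The tested genes nearest to C3 on chromosome 17, also chosen after their values were seen, were not called in either direction. Gpr108, 6499 bases away, measured 19.6 ± 1.31 FPKM in control and 18.4 ± 1.31 FPKM in LCN2 cells (log2 fold change -0.03, adjusted p = 0.80 in limma), and Trip10, 21319 bases away, was at 75.5 ± 1.58 and 78.0 ± 3.12 FPKM (0.11, adjusted p = 0.12). On the other side the nearest tested genes lay farther off. Crb3, 138052 bases away, had a log2 fold change of 0.11 (adjusted p = 0.24). Slc25a23, 144107 bases away, had one of -0.31 (adjusted p = 0.056), with all LCN2 libraries below all controls.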
